A study of Mus musculus with 6 samples.

Results

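Cadherins are calcium-dependent adhesion proteins of the cell surface, and the results below cover the 35 genes measured here whose symbols are those of a numbered cadherin (Cdh, 23 genes) or of a nonclustered protocadherin (Pcdh, 12 genes), of 22180 genes in all. They were taken by symbol among probe sets that list 1 gene, a rule that uses no measured value, and the clustered protocadherin genes were left out. The family itself, and the gene lists used below, were picked with earlier results of these data known. All 35 such symbols in the RefSeq gene table used here were measured. The RNA came from cells taken from the dorsal body wall of E14.5 mouse embryos, strain 129SV. Every embryo was heterozygous for a green fluorescent protein allele, Ebf2(GFP)/+, at Ebf2, which encodes one of the early B cell factors, a small family of DNA-binding regulators. Freshly sorted cells that carried the receptor PDGFRα on their surface were separated by the reporter into Ebf2(GFP)+ and Ebf2(GFP)- cells, called GFP-positive and GFP-negative below, with 3 Affymetrix arrays in each group. Both groups therefore share the reporter allele and the PDGFRα gate, and the labels do not tell whether embryos were pooled or how the litters were divided over the arrays. The p-values therefore rest on the spread among these arrays alone, and that spread may be technical.

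Classical cadherins bind the same or a related cadherin on the neighbouring cell, and their tails hold β-catenin or plakoglobin and p120 catenin, which link them to actin through α-catenin. Type I cadherins such as E-cadherin and N-cadherin give strong adhesion, type II cadherins are often restricted to particular tissue compartments, and nonclustered protocadherins adhere weakly and signal to the actin skeleton. In the embryo the change from E-cadherin to N-cadherin accompanies the release of cells from epithelia, and N-cadherin and cadherin-11 are the cadherins best known from mesenchymal cells.

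Values are log2 levels per probe set, 1 probe set a gene, and changes are GFP-positive minus GFP-negative. The sort held in the arrays: Ebf2 was at 8.16, 8.60 and 9.21 in GFP-negative and at 12.04, 12.04 and 11.93 in GFP-positive arrays 1, 2 and 3, and Pdgfra lay between 12.90 and 13.24 on all 6. All 10 fibroblast and mesenchyme markers examined lay above 6.78 in both groups, the 40th percentile of gene means, used as a mark of dim genes because the files carry no detection calls. The mean log2 level of that list was 12.86 to 12.89 in GFP-negative and 12.60 to 12.64 in GFP-positive arrays, with 2 members lower and none higher by limma's test. The 2 were Thy1 and Lum, with log2 changes of −1.95 and −0.34. The median log2 change of the list was −0.08, so its lower mean rests largely on Thy1. Markers of other cells were also present and moved with the groups. All 10 macrophage markers were lower in GFP-positive cells (list mean 9.60 to 10.60 against 7.16 to 8.28), as were 10 of 10 cartilage markers (10.81 to 11.02 against 9.14 to 9.46), 3 of 8 Schwann and neural crest markers (8.35 to 8.61 against 7.67 to 7.88) and 5 of 10 mesothelium and meninges markers (8.59 to 8.69 against 8.03 to 8.13, with 1 higher). Of 10 mural markers 3 were lower and 1 higher (9.39 to 9.49 against 9.26 to 9.32), and of 9 neuron markers 1 was lower and 1 higher (7.80 to 7.89 against 7.73 to 7.81), or 2 and 2 with the replicate number as a block. In the mesothelium and meninges list the markers that fell were Ptgds, Zic1, Zic2, Foxc1 and Foxc2, and the one that rose was Wt1 (log2 change 0.76). Upk3b of that list changed by −0.02, and Msln, Lrrn4 and Krt19 lay below the dim mark, so the list did not move as 1 cell type. The part of these other cells in the decreases described below was not tested. In sorted bulk cells, fewer cells of a type and less RNA per cell cannot be told apart.

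Of the 35 genes, 3 rose and 6 fell in GFP-positive cells at a limma adjusted p under 0.05, which is 25.7% of them, where 6.49% of all 22180 genes passed (2.65% higher and 3.84% lower). Since the family was picked with earlier results known, this share is a description and not independent evidence. Cdh4, Cdh2 and Pcdh20 rose, and Cdh1, Cdh5, Cdh6, Cdh8, Cdh20 and Pcdh10 fell. The remaining 26 did not pass. Among genes above the dim mark, 8 of 29 members passed, against 9.75% of all such genes. The median log2 change of the 35 was −0.06, and that of all genes was 0.02. The median size of the change, without its sign, was 0.21 for the members and 0.08 for all genes. The 3 arrays of one group did not overlap those of the other for 20 of the 35, 9 higher and 11 lower, where 22.0% of all genes had no overlap (12.3% higher and 9.78% lower). With the replicate number as a block, 13 members passed, 6 higher and 7 lower, where 10.0% of all genes did (4.55% higher and 5.49% lower). Centring each array on its median gave 5 higher and 4 lower members. Without negative replicate 2 or positive replicate 2, 4 members passed, namely Cdh1, Cdh2, Cdh4 and Pcdh10, which also passed under every other alternative tried.

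**Figure D1:**
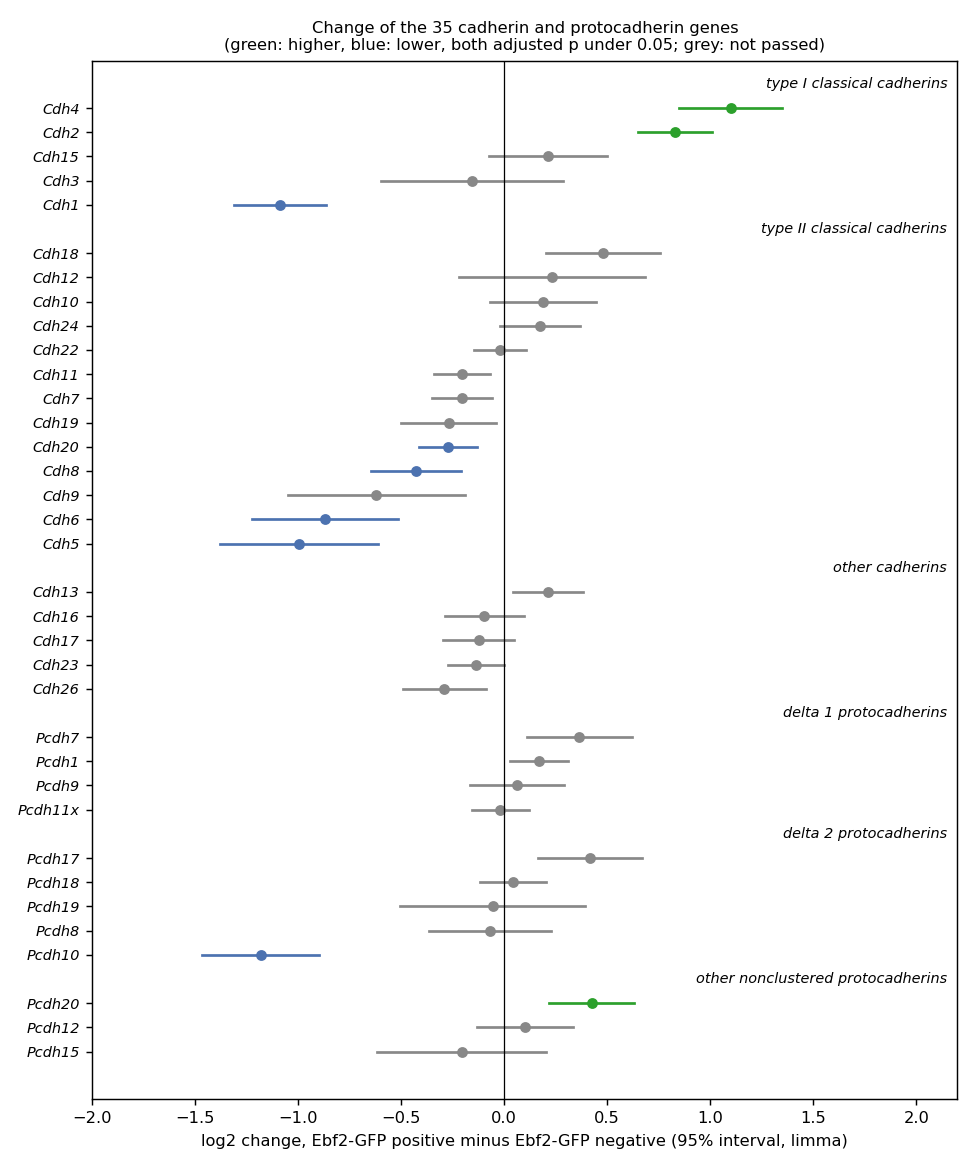
Log2 change (GFP-positive minus GFP-negative, horizontal axis) of each of the 35 genes, grouped by class, with limma's 95% interval as a bar; green genes are higher and blue genes lower at an adjusted p under 0.05, and grey genes did not pass. The largest increase is that of Cdh4 (1.10) and the largest decrease that of Pcdh10 (−1.18), and both directions occur among type I cadherins.

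The type I classical cadherins held both directions. Of their 5 members, Cdh4 and Cdh2 rose, Cdh1 fell and the other two did not pass. Cdh4, which encodes R-cadherin, a close relative of N-cadherin known from retina, brain and muscle, was at 9.16, 8.95 and 9.27 in GFP-negative arrays and at 10.35, 10.25 and 10.07 in GFP-positive arrays. The groups were well apart, and the gene rose 2.14-fold (log2 change 1.10 ± 0.11 SE, limma adjusted p = 0.0024). A dimmer Cdh4 probe set (mean 6.95 on the log2 scale) gave a log2 change of 0.28 that did not pass (adjusted p = 0.352 in a fit over single probe sets), so the probe sets differ in size. With the probe sets of a gene averaged, the log2 change of Cdh4 was 0.69 (adjusted p = 0.0106). Cdh2, the gene of N-cadherin, was at 10.94, 10.82 and 10.78 in GFP-negative arrays and at 11.78, 11.67 and 11.57 in GFP-positive arrays. It rose 1.78-fold (0.83 ± 0.08 SE, adjusted p = 0.00205), with differences between same-numbered arrays of 0.79 to 0.85. Its other probe set rose as well (1.06 ± 0.16 SE, adjusted p = 0.0134).

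Cdh1, the gene of E-cadherin, the main adhesion protein of epithelia, moved the other way. It was at 8.50, 8.21 and 8.29 in GFP-negative arrays and at 7.28, 7.13 and 7.32 in GFP-positive arrays, so that every GFP-positive array lay below every GFP-negative one. It fell 2.13-fold (−1.09 ± 0.09 SE, adjusted p = 0.00161). Another Cdh1 probe set lay below the dim mark at a mean of 5.06 and changed by 0.01 (adjusted p = 0.94), and with the probe sets of a gene averaged the log2 change of Cdh1 was −0.54, still past the threshold. None of 9 measured epithelial markers passed limma's test, and 2 had an unadjusted p under 0.05, as did 3927 of all 22180 genes. With the replicate block 1 passed as higher, Krt18, a keratin of simple epithelia (log2 change 0.34, adjusted p = 0.0413). Their mean log2 level was 6.50 to 6.69 in GFP-negative and 6.54 to 6.69 in GFP-positive arrays, and 5 and 4 of the 9 lay below the dim mark in these groups. The log2 change was negative for 5 of the 9, with a median of −0.03, so the list moved in neither direction. Epcam, another epithelial adhesion gene, had a log2 change of 0.49 (limma adjusted p = 0.0976), with a GFP-negative mean of 6.52, below the dim mark. Krt8, another keratin, had a log2 change of −0.18 (adjusted p = 0.447). Cdh3, the gene of P-cadherin of placenta and epidermis, ranged from 9.36 to 9.79 in GFP-negative and from 9.01 to 9.64 in GFP-positive arrays. These ranges overlapped, and its log2 change was −0.16 with a 95% interval of −0.60 to 0.29 (adjusted p = 0.749). Cdh15, which encodes M-cadherin of skeletal muscle precursors, had a log2 change of 0.21 (interval −0.07 to 0.50, adjusted p = 0.444), and 1 of 10 myogenic markers was higher and none lower.

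**Figure D2:**
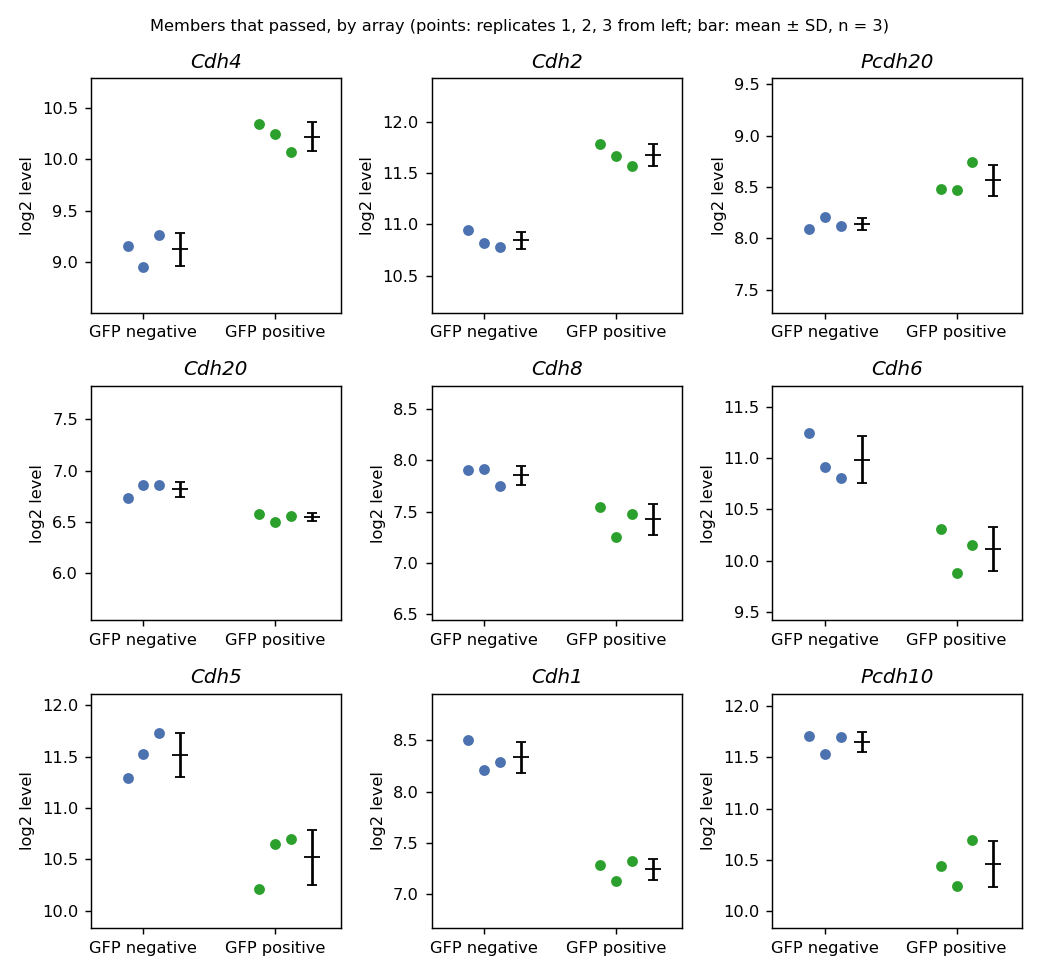
Log2 level on each array (vertical axis, each panel spanning the same range) of the 9 genes that passed, with GFP-negative arrays in blue, GFP-positive arrays in green and the mean ± SD (n = 3) beside them. No gene has overlapping groups, and the gap is smallest for Cdh20, whose closest arrays lie at 6.74 and 6.58.

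Among type II cadherins every call was a decrease. Of 13 members 4 fell (30.8%), none rose and 9 did not pass, where 3.84% of all genes fell and 2.65% rose. After median centring or quantile normalization, however, Cdh18 passed as higher and Cdh8 and Cdh20 no longer passed. The log2 change was negative for 9 of the 13 and for 9730 of all 22180 genes. Cdh5 encodes VE-cadherin, the adhesion protein of endothelial junctions. It was at 11.30, 11.52 and 11.73 in GFP-negative arrays and at 10.21, 10.65 and 10.70 in GFP-positive arrays. The groups did not overlap, and Cdh5 fell 2.00-fold (−0.998 ± 0.16 SE, adjusted p = 0.016, or 0.00217 with the replicate block). Leaving out replicate 2 of either group ended the call (adjusted p of up to 0.066). Of 10 other endothelial markers 1 rose and 1 fell, and with the replicate block 1 rose and 3 fell. Their mean level was 8.45, 9.04 and 8.62 in GFP-negative and 8.33, 8.64 and 8.49 in GFP-positive arrays. The groups overlap, but the list was lower in every same-numbered pair, with differences of −0.12, −0.41 and −0.13, and 8 of its 10 markers had a negative change (median −0.25). The marker that fell was Erg, an endothelial transcription factor that is also known from cartilage (log2 change −1.29, adjusted p = 0.00169), and the one that rose was Emcn, endomucin (0.94, adjusted p = 0.0214). None of Pecam1, Tek and Kdr passed without the block, at log2 changes of −0.38, −0.13 and 0.30 (adjusted p = 0.554, 0.889 and 0.515). With the block Pecam1 passed as lower (adjusted p = 0.0407), as did Sox18, an endothelial transcription factor (log2 change −0.62, adjusted p = 0.0061, or 0.086 without the block). The part of the endothelial markers in the decrease of Cdh5 was not tested. Pcdh12, a protocadherin also known from endothelium, had a log2 change of 0.10 (interval −0.13 to 0.33, adjusted p = 0.688).

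**Figure D3:**
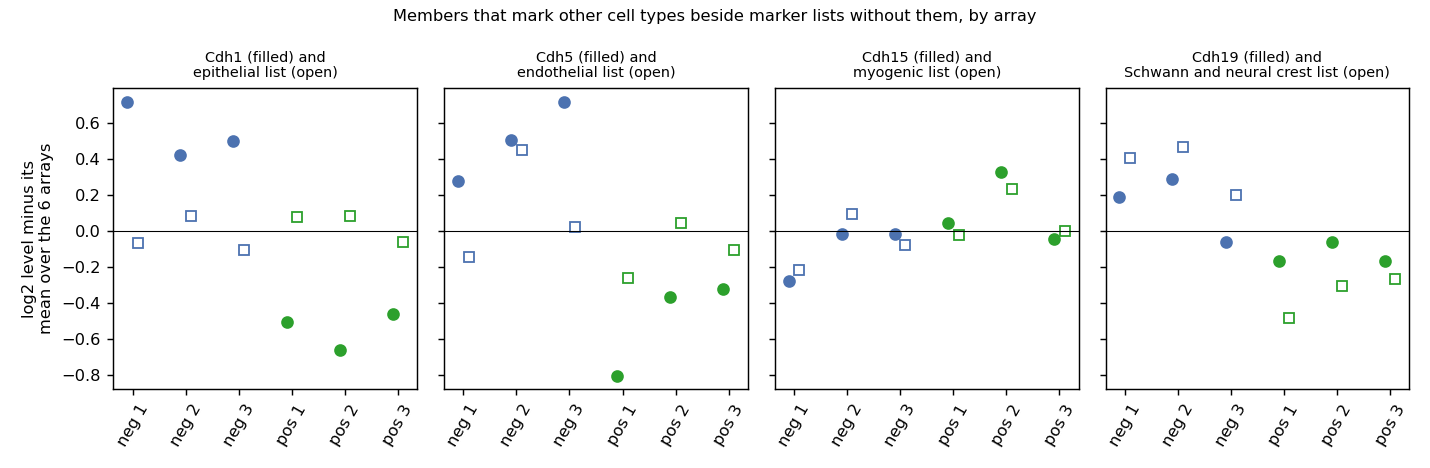
Log2 level of 4 cadherins that mark other cell types (filled points) and the mean of marker lists without them (open squares), each as its difference from its own mean over the 6 arrays, by array (neg: GFP-negative, pos: GFP-positive). Cdh1 spans 0.71 to −0.66 while the epithelial list stays between −0.11 and 0.08, and the Schwann and neural crest list is lower in all 3 GFP-positive arrays. Of the 9 epithelial markers, 5 lay below the dim mark in GFP-negative and 4 in GFP-positive cells, so their mean can show little. The part of epithelial cells in the decrease of Cdh1 was not tested.

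Cdh6, the gene of K-cadherin, known from kidney and neural crest derivatives, was at 11.24, 10.91 and 10.80 in GFP-negative and at 10.31, 9.88 and 10.16 in GFP-positive arrays. It fell 1.83-fold (−0.87 ± 0.15 SE, adjusted p = 0.0198), with no overlap between the groups. Leaving out negative replicate 2, positive replicate 2 or positive replicate 3 ended the call (adjusted p of up to 0.0744). Cdh8, a cadherin of neural circuits, lay at 7.90, 7.91 and 7.75 and at 7.54, 7.25 and 7.48. That is a 1.35-fold decrease (−0.43 ± 0.09 SE, adjusted p = 0.0434), and leaving out any 1 array ended the call (up to 0.14), as did array weights and eBayes with a trend. Cdh20, known from neural crest and nervous system, was at 6.74, 6.87 and 6.86 and at 6.58, 6.50 and 6.56, with the GFP-positive arrays and negative replicate 1 below the dim mark. Its log2 change of −0.27 ± 0.06 SE passed narrowly (adjusted p = 0.0458). The call was lost with the replicate block (0.059), with eBayes and a trend (0.0722), and without any 1 array other than negative replicate 1 (up to 0.157).

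The RefSeq promoter table (build GRCm38.p6) holds an entry for 22 of the 35 genes, Cdh6, Cdh8, Cdh20, Pcdh10 and Pcdh20 among the 9 that passed. The 250 bases before the start of Cdh6 are shown because it is the cadherin with the largest change among those with an entry, with capitals for matches to CANNTG, the E-box letters that bHLH factors such as Twist proteins bind.
Cdh6, chr15:13173676-13173925, minus strand: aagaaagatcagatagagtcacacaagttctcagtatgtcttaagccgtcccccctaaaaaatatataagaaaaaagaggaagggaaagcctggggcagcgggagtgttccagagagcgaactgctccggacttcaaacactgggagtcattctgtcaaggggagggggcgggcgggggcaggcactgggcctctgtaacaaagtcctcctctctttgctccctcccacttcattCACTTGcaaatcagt
This stretch holds 1 match. On both strands, CANNTG occurs in 13 of 25 member promoters (52%) and in 66.2% of 32807 promoters of the same length. Its subset CAGGTG or CACCTG, the letters known from Snail and Zeb binding, occurs in 3 member promoters (12%), those of Cdh7 and Pcdh15, and in 17.2% of all. The palindromic motif known from EBF binding occurs in 0 of the 25 and in 0.78% of all. A match is a description of letters only.

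Among the type II members that did not pass, several lay near the threshold. Cdh18, a cadherin of the nervous system, was at 8.63, 8.61 and 8.42 in GFP-negative and at 9.27, 8.92 and 8.90 in GFP-positive arrays, a log2 change of 0.48 ± 0.12 SE (adjusted p = 0.064). The call was made with the replicate block (0.0218), on median-centred values (0.0478), on quantile-normalized values (0.0468) and when dim genes were dropped (0.0456). Cdh9, known from kidney and synapses, was at 7.21, 7.55 and 7.49 and at 6.60, 6.59 and 7.19. Positive replicate 3 stood closest to the GFP-negative arrays, the log2 change was −0.62 ± 0.18 SE (adjusted p = 0.116), and the gene passed with the block (0.0469) and without positive replicate 3 (0.0262). Cdh11, the gene of OB-cadherin, which is typical of mesenchyme and osteoblasts, was at 13.27, 13.41 and 13.28 and at 13.13, 13.11 and 13.10. The groups did not overlap, yet the log2 change was only −0.20 (interval −0.34 to −0.07, adjusted p = 0.103), and it passed under a single alternative, eBayes with a trend (0.0293). Cdh19, a marker of Schwann cell precursors, lay below the dim mark in every array (5.55 to 6.01), with a log2 change of −0.27 (adjusted p = 0.204, or 0.0477 without negative replicate 3). Cdh7, Cdh10, Cdh12, Cdh22 and Cdh24 had log2 changes between −0.21 and 0.23 and did not pass.

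None of the 5 cadherins outside the classical types passed limma's test. An unadjusted p under 0.05 was met by 3 of them and by 3927 of all 22180 genes. Cdh13 encodes T-cadherin, an adiponectin receptor that is anchored by lipid and lacks a catenin-binding tail. It was at 7.69, 7.74 and 7.86 in GFP-negative and at 8.06, 7.88 and 8.0 in GFP-positive arrays, a change of 0.21 (interval 0.04 to 0.38, adjusted p = 0.171). The ranges do not overlap, but the gap between them is small. Cdh26, a cadherin of epithelia, had a log2 change of −0.29 (adjusted p = 0.118) and passed with the block (0.0462). Cdh16 of kidney, Cdh17 of intestine and Cdh23 of the hair cell tip link lay below the dim mark on their mean over the 6 arrays, with log2 changes of −0.10, −0.12 and −0.14.

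Of the 12 nonclustered protocadherins, 1 rose and 1 fell (16.7%, where 6.49% of all genes passed). All 12 lay above the dim mark, and 9.75% of all genes above it passed. Among so few genes this count is near the common share. Pcdh10, a delta 2 protocadherin that recruits the actin regulators of the WAVE complex, was at 11.71, 11.53 and 11.70 in GFP-negative arrays and at 10.44, 10.25 and 10.70 in GFP-positive arrays. The groups were well apart, and Pcdh10 fell 2.27-fold (−1.18 ± 0.12 SE, adjusted p = 0.00293). Over the arrays left out, its log2 change ran from −1.30 to −1.08. Pcdh20 was at 8.09, 8.20 and 8.12 and at 8.48, 8.47 and 8.74. It rose 1.34-fold (0.42 ± 0.09 SE, adjusted p = 0.0364), and leaving out any 1 array ended the call (up to 0.108). The promoter bases of these are shown as those of the only protocadherins that passed, with capitals again reserved for CANNTG.
Pcdh10, chr3:45378148-45378397, plus strand: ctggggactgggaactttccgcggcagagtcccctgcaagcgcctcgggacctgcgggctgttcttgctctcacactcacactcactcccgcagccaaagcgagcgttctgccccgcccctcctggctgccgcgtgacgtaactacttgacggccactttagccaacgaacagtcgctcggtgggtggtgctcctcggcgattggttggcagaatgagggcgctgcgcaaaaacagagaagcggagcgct
Pcdh20, chr14:88471397-88471646, minus strand: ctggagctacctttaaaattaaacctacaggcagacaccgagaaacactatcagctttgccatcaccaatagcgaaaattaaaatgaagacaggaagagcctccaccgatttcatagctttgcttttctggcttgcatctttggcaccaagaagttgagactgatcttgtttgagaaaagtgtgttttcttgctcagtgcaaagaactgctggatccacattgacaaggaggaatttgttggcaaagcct
Neither stretch holds a match to CANNTG. They differ in composition, with 63.2% G and C and 22 CG dinucleotides before Pcdh10 and 42.4% and 3 before Pcdh20, where the median of all promoters was 52.4% and 6.

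The other delta 2 members did not pass. Pcdh18, a gene of limb and body wall mesenchyme, lay between 12.47 and 12.67 on all 6 arrays (log2 change 0.04, interval −0.12 to 0.20). Pcdh19, known for epilepsy in heterozygous females, ranged from 10.10 to 10.60 in GFP-negative and from 9.94 to 10.56 in GFP-positive arrays, with replicate 3 the highest in each group. Its log2 change was −0.06 (interval −0.51 to 0.39). Pcdh17 was at 7.87, 8.10 and 7.87 and at 8.43, 8.48 and 8.18, a change of 0.42 ± 0.11 SE that missed the threshold (adjusted p = 0.0761) and passed with the block (0.0239) and after median centring (0.0404). Pcdh8, the paraxial protocadherin of segmenting mesoderm, had a change of −0.07 (interval −0.36 to 0.23). None of the 4 delta 1 members passed limma's test, and 2 had an unadjusted p under 0.05, as did 3927 of all 22180 genes. Pcdh7 lay at 9.99, 10.03 and 10.27 and at 10.39, 10.36 and 10.63. The groups did not overlap, its log2 change was 0.36 ± 0.11 SE (adjusted p = 0.117), and with the replicate block it passed (0.0151), the same-numbered arrays differing by 0.33 to 0.41. Pcdh1, Pcdh9 and Pcdh11x had log2 changes of 0.17, 0.06 and −0.02. Pcdh15, which joins Cdh23 in the hair cell tip link, differed by −0.21 (interval −0.62 to 0.20), and its same-numbered arrays differed by −0.22 to −0.19 (adjusted p = 0.623, or 0.0632 with the block). Another Pcdh15 probe set, below the dim mark at a mean of 6.76, changed by 0.03 (adjusted p = 0.943 in a fit over single probe sets).

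Most of these genes lie in groups on their chromosomes, and neighbours did not always move alike. The order was taken from the RefSeq gene table of GRCm38.p6, and differences between neighbours were not tested. On chromosome 15, Cdh6, Cdh9, Cdh10 and Cdh12 follow each other with 0 other protein-coding genes between them, and Cdh18 follows Cdh12 after 1. In that order their log2 changes were −0.87, −0.62, 0.19, 0.23 and 0.48, of which only that of Cdh6 passed. The interval of Cdh9 ran from −1.05 to −0.19 and that of Cdh10 from −0.07 to 0.44. On chromosome 8, which holds 8 of the 35 genes, Cdh8, Cdh11 and Cdh5 are direct neighbours and had log2 changes of −0.43, −0.20 and −0.998. Cdh3 and Cdh1, also neighbours there, had changes of −0.16 and −1.09, and their intervals (−0.60 to 0.29 and −1.31 to −0.86) did not overlap. On chromosome 14, Pcdh20 (0.42) lies next to Pcdh9 (0.06), and 2 coding genes separate it from Pcdh17 (0.42). On chromosome 3, Pcdh10 and Pcdh18 are separated by 1 coding gene and had changes of −1.18 and 0.04.

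**Figure D4:**
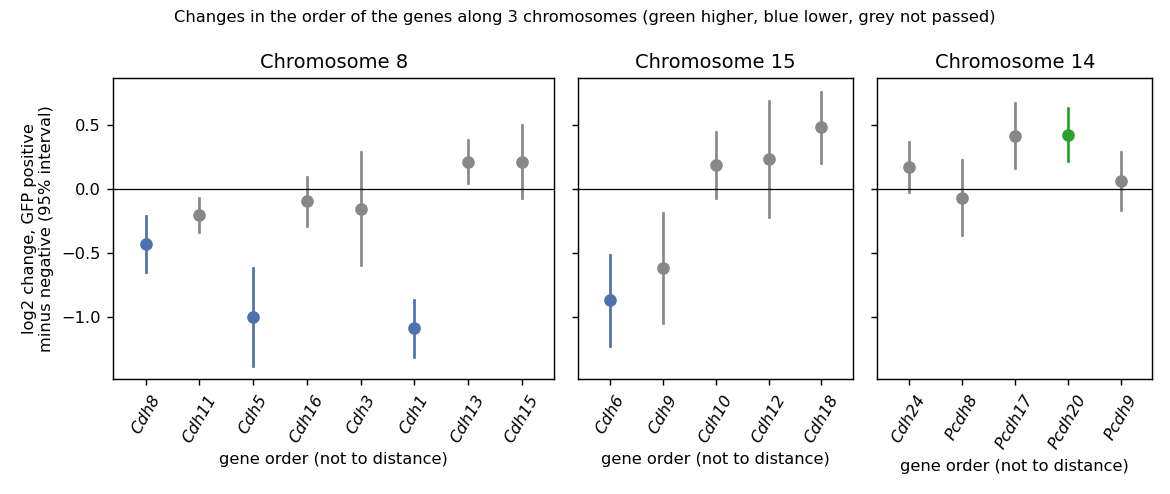
Log2 change with limma's 95% interval (vertical axis) of the members on chromosomes 8, 15 and 14, placed in gene order and not to distance; green is higher, blue lower and grey not passed. On chromosome 15 the changes run from −0.87 at Cdh6 to 0.48 at Cdh18.

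The genes known to work with cadherins were taken from lists of 69 genes, of which 67 were measured. Of these, 4 rose and 7 fell (16.4%, beside 6.49% of all genes, also a description of lists chosen with earlier results known), with a median log2 change of −0.01. The core catenins did not pass: Ctnnb1, the gene of β-catenin, changed by −0.01 (interval −0.16 to 0.14, adjusted p = 0.948), Ctnna1, of α-catenin, by −0.08 (−0.21 to 0.05) and Ctnnd1, of p120 catenin, by −0.05 (−0.17 to 0.07). In the list of catenins and adherens junction genes, 1 of 17 rose and 3 fell. Ctnna2, the α-catenin of the nervous system, was at 9.25, 9.04 and 8.72 in GFP-negative and at 7.99, 7.79 and 7.67 in GFP-positive arrays. It fell 2.28-fold (−1.19 ± 0.15 SE, adjusted p = 0.006). Of the Schwann and neural crest markers 3 of 8 were lower, and of 9 neuron markers 1 was lower and 1 higher. Whether either list is linked to the decrease of Ctnna2 was not tested. Jup, which encodes plakoglobin, the catenin shared with desmosomes, was at 9.62, 9.56 and 9.68 and at 10.13, 10.01 and 10.02, a 1.35-fold rise (0.43 ± 0.06 SE, adjusted p = 0.00981). Nectin2, an immunoglobulin-like adhesion gene, and Plekha7, of a p120-binding protein, fell by 0.39 and 0.35 on the log2 scale (adjusted p = 0.0338 and 0.037). The call of Nectin2 was lost with the block (0.054) and without any 1 array other than negative replicate 1 (up to 0.13), and that of Plekha7 without any 1 array other than negative replicate 3 (up to 0.13). Median centring ended both calls, and quantile normalization and eBayes with a trend ended that of Plekha7.

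Transcription factors known to repress cadherin genes were split. Of 6 listed, 5 were measured, so the list is incomplete. All 5 lay above the dim mark, and 1 rose and 3 fell, where 9.75% of all genes above that mark passed. Since this list too was chosen with earlier results known, the count is a description and not independent evidence. Twist2 was at 11.98, 11.81 and 11.82 in GFP-negative and at 10.04, 9.98 and 10.58 in GFP-positive arrays, and fell 3.18-fold (−1.67 ± 0.16 SE, adjusted p = 0.0024). Twist1 fell 1.75-fold. Snai1, of the Snail protein, fell by 0.36 on the log2 scale (adjusted p = 0.0341), and leaving out any 1 array ended its call (up to 0.103), as did quantile normalization. Zeb1, a zinc finger repressor of E-cadherin, was at 9.66, 9.70 and 9.70 and at 10.09, 10.13 and 10.20, and rose 1.37-fold (0.45 ± 0.05 SE, adjusted p = 0.0054). Snai2, of the Slug protein, changed by −0.09 and did not pass (adjusted p = 0.672). Twist1, Twist2, Snai1 and Cdh1 were all lower in GFP-positive cells, Zeb1 was higher and Snai2 did not pass. Whether any of these factors is linked to the decrease of Cdh1 was not tested.

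In the wider cadherin superfamily, 2 of 19 genes rose and none fell (10.5%), where 6.49% of all genes passed. Of the 19, 15 lay above the dim mark, and 9.75% of all genes above it passed, so this count is near the common share. Dchs2, a large cadherin of the Fat and Dachsous system of planar cell polarity, was at 8.50, 8.41 and 8.83 in GFP-negative and at 9.88, 9.71 and 9.96 in GFP-positive arrays, a 2.41-fold rise (1.27 ± 0.12 SE, adjusted p = 0.00258). Fjx1, a relative of the Golgi kinase four-jointed of that system, rose 1.60-fold (0.68 ± 0.10 SE, adjusted p = 0.0119), a call that ended without positive replicate 2 (0.0558). Fat3 and Fat4, the genes of large cadherins of the same system, stood at the threshold and are named after their values were seen. The log2 change was 0.94 ± 0.21 SE for Fat3 (adjusted p = 0.0506, or 0.00877 with the block) and −0.25 ± 0.06 SE for Fat4 (adjusted p = 0.05001). None of 13 desmosome genes passed, 10 of them below the dim mark. Of the 13, 3 had an unadjusted p under 0.05, as did 3927 of all 22180 genes. Among 13 measured cytoplasmic partners of protocadherins 1 passed (7.69%), near the share of 6.49% of all genes. This was Myo7a, a myosin of hair cells that works with the tip link, which fell 1.53-fold (−0.61 ± 0.10 SE, adjusted p = 0.0161). Its call ended without negative replicate 1 or any 1 positive replicate (up to 0.075), and the count at an unadjusted p under 0.05 in that list was 1.

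**Figure D5:**
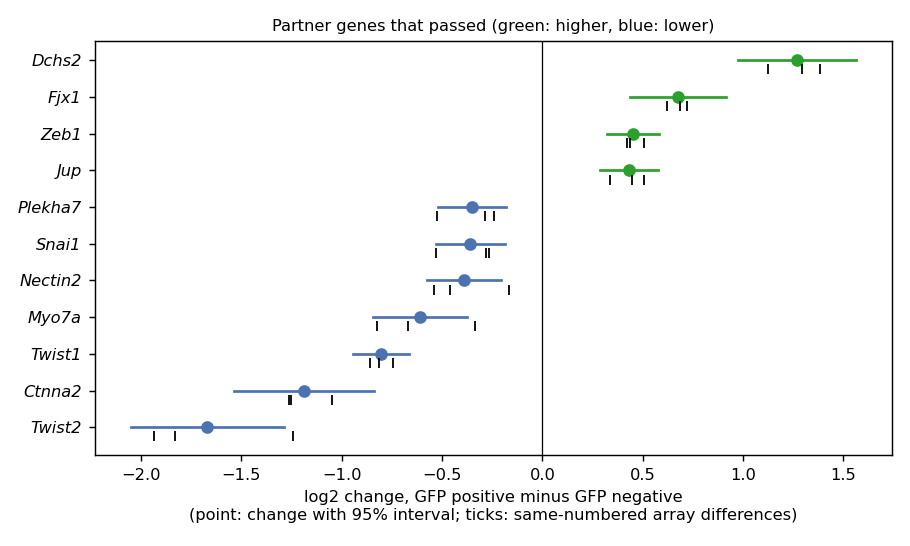
Log2 change (GFP-positive minus GFP-negative, horizontal axis) of the 11 partner genes that passed, as a point with limma's 95% interval, with ticks for the differences between same-numbered arrays. Dchs2 rose the most (1.27) and Twist2 fell the most (−1.67), and all ticks of a gene lie on the same side of 0.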

How the data were processed

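Total RNA of 6 sorted cell samples was hybridised to Affymetrix arrays. The authors deposited 1 value for each probe set and array, read here as log2 from its range. The submitters' processing notes list RMA and limma without versions or roles. The array medians lay between 6.66 and 6.71, so that a change common to most genes may be hidden, and 3 arrays a group limit the precision. Levels of different probe sets were used only to choose the brightest of a gene, to set the dim mark and to average marker lists.

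Of 41345 probe sets, 23521 list 1 gene, 1814 several and 16010 none. Genes were named from the first kind, by gene identifier, and where a gene had several, the brightest on average was used (22180 genes). The model, with group as the only term, was fitted in limma 3.58.1 (lmFit, eBayes; R 4.3.3), and p-values were adjusted by the Benjamini-Hochberg method over the whole table. The method was tested on simulated data with independent noise on each array, without the correlation between same-numbered arrays given below. There 48.2% of genes with a log2 change of 0.5 passed and 88.6% of those with a change of 1, and 5.56% of the calls were false. A member that did not pass may therefore still differ. The members and lists were chosen with earlier results of these data known. Named genes are all members, the partner genes that passed, the core catenins, and markers a result turns on. Same-numbered arrays are not described by the labels as sharing anything, but their deviations from the group means correlated at 0.314 to 0.519. Different numbers correlated at −0.384 to −0.024, but deviations cancel within a group, so these negative values are no separate evidence of pairing. On the data alone the numbers may be pairs. The main model ignores any such pairing, and a model that adds this number as a block was an alternative. The others were quantile normalization, median centring, leaving out dim genes, averaging probe sets, eBayes with a trend, array weights and leaving out each array. Plots were drawn with matplotlib 3.10.9.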

Additional observations from a re-analysis of the deposited data

How the results depend on the processing

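With the replicate block, 2228 of all genes passed in place of 1439, with 13 members and 15 partner genes. It changed no call among the members other than those given above, and among partner genes it added Ctnnd2, Dsc3, Dsg1a, Fat3 and Ret and ended Nectin2. Leaving out 1 array gave 629 to 1067 genes, 4 to 7 members and 7 to 9 partner genes. Over the other alternatives, the block apart, 8 to 9 members and 10 to 13 partner genes passed. Median centring moved the median change of all genes to 0.07, and 53.7% of the genes that passed were then higher, in place of 40.9%. Of 449 member values under alternatives, 30 lost a call, 12 gained one and none of the called values changed sign. The 6 members below the dim mark were not tested without dim genes. Signals near background limit what the dimmer members can show.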
